A study of Drosophila melanogaster with 120 samples.

Results

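The Yellow family of Drosophila melanogaster is a set of secreted proteins related to the major royal jelly proteins of the honeybee. Its founder gene, yellow (y), is needed for black pigment in the cuticle and for normal male courtship, and yellow-f and yellow-f2 encode enzymes that convert dopachrome on the way to melanin. In contrast, yellow-g and yellow-g2 are genes of the follicle cells, the layer around each oocyte that secretes the eggshell, and they lie in a stretch of DNA that these cells amplify late in oogenesis, as they amplify the chorion gene clusters. Of 10 genes named for the family, 9 had a probe set annotated to them alone and each had 1 such probe set: y on the X chromosome, yellow-b on 2L, yellow-d and yellow-d2 on 2R, yellow-e, yellow-f and yellow-f2 on 3R, and yellow-g and yellow-g2 on 3L. No probe set annotated to yellow-c alone was found, and yellow-c was not analysed here. The array has a probe set annotated to 1 gene alone for 11982 genes, and 18769 probe sets were tested. In the RefSeq annotation of Release 6, no other protein-coding gene starts between yellow-g and yellow-g2, between yellow-f and yellow-f2 or between yellow-d and yellow-d2.

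The samples were adult whole flies of 15 hemiclone lines, with 4 replicate groups per line and sex, making 60 arrays of each sex. A hemiclonal fly carries 1 haplotype shared by its line, drawn from the outbred LHM population, and a random LHM haplotype as the other. The lines were kept through clone-generator females with the compound X C(1)DX marked by y and f and with the translocation T(2;3), whose markers were rdgC, st, in, ri, pP and bwD, and the assayed males came from double-X mothers that also carried y while the assayed females came from LHM mothers. A son of a double-X mother takes its X from its father, so the y allele of the mothers was not passed to the assayed males. Flies were 4 days adult, on day 14, had spent 24 hours with LHM tester flies of the opposite sex, and were frozen in groups of 6. Line names begin with H in 6 lines and with P in 9, and the labels do not say what either prefix means. The lines had been selected for high, low or average fitness of males and females, but the labels assign no line to a fitness class and fitness was not compared here.

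The values are log2 expression levels, on which a difference of 1 is a doubling. Replicate arrays had pairwise correlations of 0.988 to 0.997 over 180 pairs (median 0.996). The labelled sexes differed in every array in the mean of their markers: yolk protein genes (Yp1, Yp2, Yp3) averaged 14.24 to 14.58 in female arrays and 5.04 to 8.86 in male arrays, and seminal fluid genes (SP, Acp26Aa, Acp36DE) averaged 13.30 to 13.95 in males and 3.47 to 4.30 in females. The median of an array's probe sets was 0.64 higher in males, whereas the median of 47 ribosomal protein probe sets was 0.72 lower in males. The median male minus female difference over all probe sets was -0.27 in the values as deposited, -0.91 after centring each array on its median and 0.48 after centring it on the ribosomal protein genes. Females have no Y chromosome, and 6 probe sets of Y-linked genes averaged 2.72 to 4.61 in females, a range that stands here for transcripts that were not present.

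The sexes were compared first. The effect of sex passed a threshold of 0.001 on the false discovery rate (FDR) for 8 of 9 members, 4 with higher expression in males and 4 with higher expression in females, where 91.4% of all probe sets passed the same test, 30.5% with higher values in males and 60.9% with higher values in females. After centring on the array median, 4 members passed as higher in males (21.2% of all probe sets) and 5 in females (73.6%), and after centring on the ribosomal protein genes 7 in males (72.1%) and 2 in females (21.4%). Over the 120 arrays the values of males and females did not overlap for 5 of 9 members (yellow-b, yellow-e, yellow-f2, yellow-g and yellow-g2), compared with 43.3% of all probe sets. Of these 5, 3 were higher in males (18.5% of all probe sets) and 2 in females (24.8% of all probe sets). Each sample was a group of whole flies, so that fewer cells of a type and less RNA per cell cannot be told apart.

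The eggshell pair had the largest differences of the family. In females, yellow-g ranged from 9.79 to 12.38 with a median of 11.14, and in males from 4.33 to 5.45 with a median of 4.80. All 60 female arrays lay above all 60 male arrays, with a gap of 4.34 between the closest of them. The difference of yellow-g was -6.34 ± 0.059 (male minus female, SE, n = 15 lines) (F test on 1 and 14 degrees of freedom, adjusted p = 2.08e-20). Its neighbour yellow-g2 ranged from 9.01 to 11.95 in females with a median of 10.65, and from 3.71 to 4.52 in males with a median of 4.15. The male values of yellow-g2 lay within the range of Y-linked probe sets in females, and those of yellow-g lay partly above it. The difference of yellow-g2 was -6.50 ± 0.067 (SE, n = 15 lines, adjusted p = 6.64e-20). With male values at or near that range, both differences are given as measured and not as folds between transcript levels. Only 0.405% of all probe sets were higher in females by more than 6 on the log2 scale.

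Another 4 members had higher expression in males in each of the 15 lines. The largest of these differences was that of yellow-e, a gene needed for normal larval pigmentation in the silkworm. Its values ranged from 6.99 to 8.58 in males with a median of 7.75, and from 5.60 to 6.38 in females with a median of 6.03. The sexes were separated by 0.61, and the difference was 1.77 ± 0.068 (SE, n = 15 lines), or 3.42-fold (adjusted p = 7.09e-13). Male values of yellow-b ran from 7.12 to 8.50 (median 7.72) and female values from 5.63 to 6.86 (median 6.39), which gave a difference of 1.39 ± 0.044 (adjusted p = 5.72e-14). For yellow-d the ranges were 9.10 to 10.38 in males (median 9.85) and 7.99 to 9.12 in females (median 8.45), with a difference of 1.34 ± 0.061 (adjusted p = 6.80e-12). The yellow-d ranges met at their ends, overlapping by 0.02. The smallest of the 4 was yellow-f2, at 7.81 to 8.72 in males (median 8.37) and 6.82 to 7.72 in females (median 7.25), a difference of 1.09 ± 0.043 (adjusted p = 9.12e-13). These 4 members were higher in males under each of the 3 scalings, with differences from 0.46 to 1.14 after centring on the array median and from 1.85 to 2.53 after centring on the ribosomal protein genes.

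**Figure D1:**
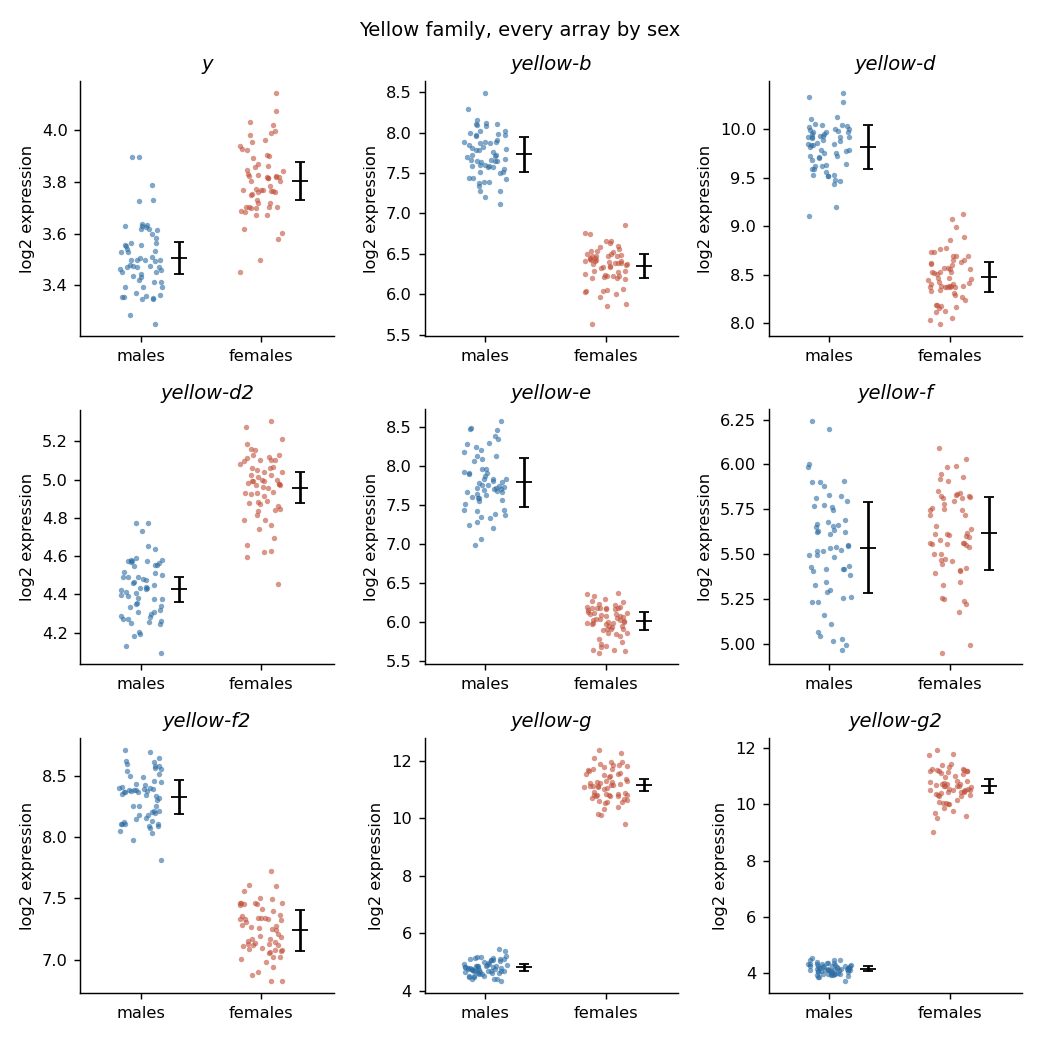
Log2 expression of the 9 measured Yellow family members (vertical axes, which differ between panels) in 60 male (blue) and 60 female (red) arrays, with 1 point per array. Black bars give the mean and SD of the 15 line means; the sexes are fully apart for yellow-b, yellow-e, yellow-f2, yellow-g and yellow-g2 and overlap for the other members.

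The other 3 members had small differences in the deposited values, and their size and direction changed with the scaling. The founder gene y was measured at 3.25 to 3.90 in males (median 3.49) and at 3.45 to 4.14 in females (median 3.80), values that lay inside the range of Y-linked probe sets in females. Its mean was lower in males by 0.30 (SE 0.030) in the deposited values, with the same direction in 15 of 15 lines (adjusted p = 1.27e-07). The difference of y was -0.93 after centring on the array median, but 0.46, higher in males, after centring on the ribosomal protein genes. For yellow-d2 the values were 4.09 to 4.77 in males (median 4.43) and 4.46 to 5.31 in females (median 4.98). Its difference was -0.53 ± 0.025 (adjusted p = 1.10e-11) in the deposited values and -1.17 after centring on the array median. After centring on the ribosomal protein genes it was 0.22 in the opposite direction, higher in males. The sexes overlapped almost entirely for yellow-f, at 4.97 to 6.24 in males (median 5.54) and 4.95 to 6.09 in females (median 5.61). Its difference of -0.08 ± 0.034 did not pass the threshold (adjusted p = 0.0394) and males had the higher mean in 6 of 15 lines, while the difference was -0.71 after centring on the array median and 0.68 after centring on the ribosomal protein genes, both past the threshold. Genes that lie side by side were then compared line by line in their sex differences, 3 pairs in all, chosen after the values were seen. Such a comparison does not change with the scaling of the arrays. The difference of yellow-f was below that of yellow-f2, its partner in the dopachrome reaction, by 1.17 in size (-1.17 ± 0.056, SE) and in 15 of 15 lines. The difference of yellow-d was above that of yellow-d2 by 1.87 ± 0.070 in 15 of 15 lines. In an exact permutation test of signs over lines, two-sided, both had p = 6.1e-05, the smallest that 15 lines can give (adjusted over 3 pairs, 9.16e-05). The male values of yellow-d2 lay partly within the range of Y-linked probe sets in females. No gap is given for yellow-g and yellow-g2, the other pair, whose male values lay at or near that range.

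**Figure D2:**
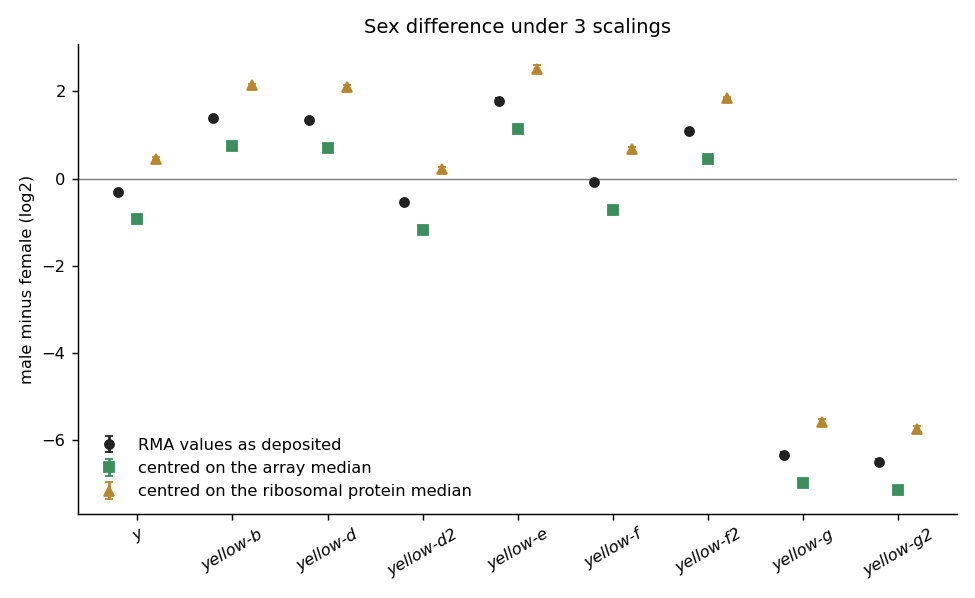
Male minus female difference (vertical axis, log2) of each of the 9 members, as the mean and SE of 15 lines, in the deposited values (black circles) and after centring each array on its median (green squares) or on its ribosomal protein median (brown triangles). The 4 male-high and both eggshell members keep their sign under all 3 scalings, whereas y, yellow-d2 and yellow-f lie below zero under the deposited and the array median scaling and above zero under the ribosomal protein scaling.

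Genetic variation in expression was assessed next, as the variance among lines. In the model of both sexes the line term was significant for 0 of 9 members at an FDR of 0.001 (0.282% of all probe sets), with 2 at an unadjusted p below 0.05, yellow-b and yellow-f. At an FDR of 0.05 it was 1 of 9, yellow-f (adjusted p = 0.00351; 3.62% of all probe sets). With fixed line effects in limma, 5 of 9 passed at 0.001 (27.4% of all probe sets), namely yellow-b, yellow-d, yellow-e, yellow-f and yellow-f2. The interaction of sex and line was also significant for 0 of 9 members (9.87% of all probe sets). For this term 3 members had an unadjusted p below 0.05 and also passed an FDR of 0.05 (25.4% of all probe sets), namely yellow-e (adjusted p = 0.00211), yellow-d (adjusted p = 0.00281) and yellow-f2 (adjusted p = 0.0486), and 0 of 9 passed at 0.001 in limma (10.7% of all probe sets). Without H07 or without P22 the interaction passed for yellow-d (adjusted p = 0.000512 and 0.000844). When the sexes were fitted apart, 4 of 9 members varied among lines in males (27.3% of all probe sets) and 2 of 9 in females (8.36% of all probe sets). The male members were yellow-d, yellow-e, yellow-f and yellow-b, and the female ones yellow-f and yellow-f2. With 3 of the 4 replicates in the fit, 2 or 3 members passed in males and 0 in females. In these fits 1 of 9 members, yellow-f, passed in both sexes (5.46% of all probe sets).

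In males the line accounted for 73.9% of the variance of yellow-d (adjusted p = 1.25e-09). Its male line means ranged from 9.30 in H10 to 10.17 in P26 with a median of 9.80, and its female line means from 8.23 in P56 to 8.84 in P18 with a median of 8.48. Line accounted for 17.7% of the variance in females (adjusted p = 0.210). The male and female line means of yellow-d had a correlation of 0.26 (adjusted permutation p = 0.527; Spearman rho 0.25, adjusted permutation p = 0.474). The line with the lowest male mean was not the one with the lowest female mean. In males, yellow-e ranged from 7.30 in P48 to 8.27 in H09 (median 7.69), with 64.7% of the variance among lines (adjusted p = 2.96e-07). Its female means ranged from 5.84 in P56 to 6.18 in H09 (median 5.99) and line took 14.6% of the variance (adjusted p = 0.287). The male and female means of yellow-e were correlated at r = 0.62 (adjusted permutation p = 0.0495; rho 0.70, adjusted permutation p = 0.0215), but without H09 and H14, the lines farthest from the male median, r was 0.45 (permutation p = 0.123), so the relation did not pass without those lines.

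For yellow-b the line accounted for 44.7% of the variance in males (adjusted p = 0.000506), with means from 7.42 in H13 to 8.16 in P07 (median 7.80), and for 19.8% in females (adjusted p = 0.167), with means from 6.13 in P50 to 6.62 in P22 (median 6.38). Leaving out any of 6 lines (H07, H13, P07, P18, P50 or P56) raised the adjusted p in males above 0.001, to between 0.00101 and 0.00555, as did leaving out any replicate (0.00464 to 0.0222). The line means of yellow-b in males and females were correlated at r = 0.63 (adjusted permutation p = 0.0495; rho 0.63, adjusted permutation p = 0.0434) and at 0.73 without H13 and P07. The line term of yellow-f2 took 52.4% of the variance in females (adjusted p = 0.000136) and 30.7% in males (adjusted p = 0.0142), with female means from 6.98 in P56 to 7.53 in H10 (median 7.22) and male means from 8.14 in P50 to 8.56 in P07 (median 8.32). The female call of yellow-f2 was lost without H10 (adjusted p = 0.00126) or without P18 (adjusted p = 0.00163), and when any 1 replicate was left out (0.00150 to 0.0245). That a term passed in 1 sex and not in the other does not show that the sexes differ, and the test of that difference is the interaction of sex and line given above.

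The line term of yellow-f passed in both sexes. Line took 61.7% of its variance in males (adjusted p = 1.20e-06) and 53.2% in females (adjusted p = 0.000102). The call was lost in males without replicate 1 (adjusted p = 0.00281) and in females when any 1 replicate was left out (0.00103 to 0.0214). Its line means ranged from 5.13 in P48 to 6.01 in H13 in males (median 5.59), and from 5.21 in P22 to 5.85 in H13 in females (median 5.64), a spread of 1.85-fold and 1.55-fold. The same 4 lines, P15, P22, P48 and P50, had the lowest means in both sexes, at most 5.25 in males and at most 5.40 in females, while the other 11 lines were at least 5.42 in males and at least 5.57 in females. Over all 15 lines the male and female means were correlated at r = 0.85 (permutation p adjusted over 9 members = 0.00063; rho 0.84, adjusted permutation p = 0.00126), and at 0.85 without H13 and P48. The correlation was also computed over the other 11 lines, which were chosen after the values were seen, and r was 0.59 (permutation p = 0.0549; rho 0.66, permutation p = 0.0313) and 0.27 without H07 and H13. In the other 5 members (y, yellow-d2, yellow-f2, yellow-g and yellow-g2) the correlation of the sexes had an adjusted permutation p of at least 0.217, with r from -0.44 to 0.42.

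**Figure D3:**
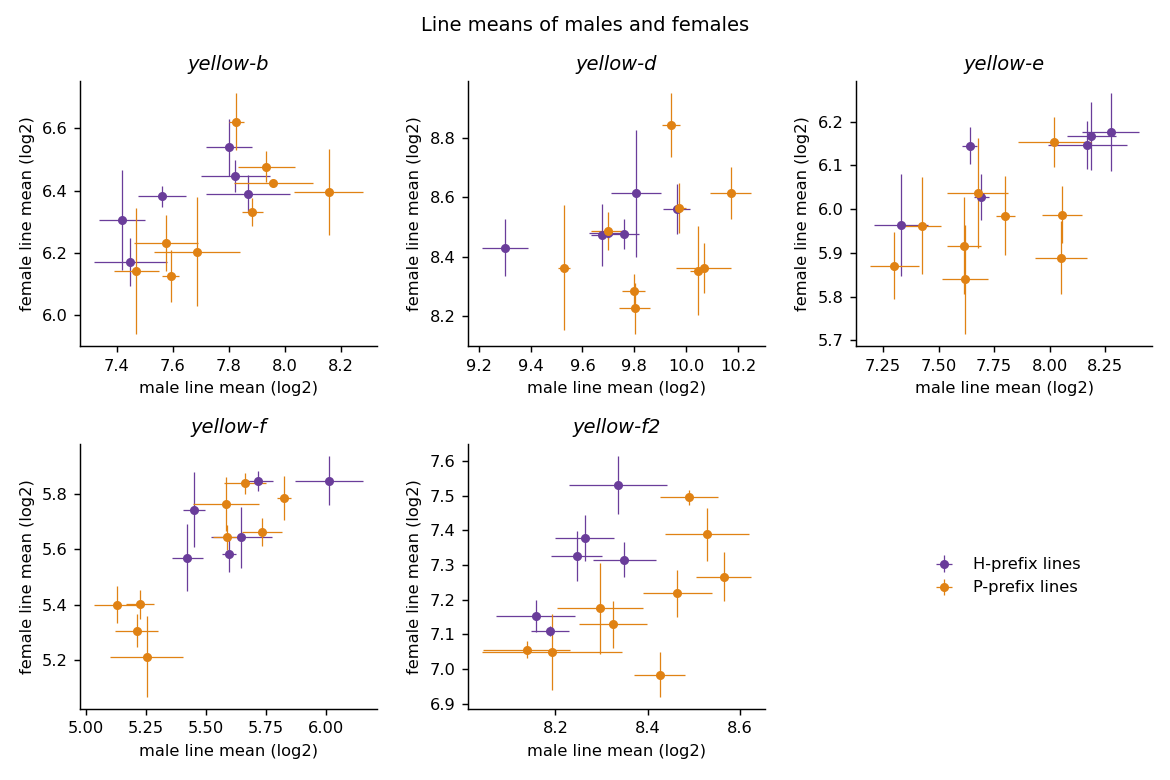
Line means of males (horizontal axis, log2) against line means of females (vertical axis, log2) for yellow-b, yellow-d, yellow-e, yellow-f and yellow-f2, with bars of 1 SE over 4 arrays and lines coloured by the prefix of their name. In yellow-f, the 4 lines P15, P22, P48 and P50 sit at the lower left, below 5.42 in males and below 5.57 in females.

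Both eggshell members showed a different kind of variation in females. Line took 0% of the variance of yellow-g and of yellow-g2 in females (adjusted p = 1 for both), yet their values differed widely between replicate groups of the same line. The SD within lines was 0.58 for yellow-g and 0.60 for yellow-g2, against a median of 0.16 over all probe sets, and exceeded that of 99.5% of them. The widest spread was in H12, where the 4 female groups read 10.12, 11.96, 12.38 and 11.77 for yellow-g and 9.60, 11.42, 11.95 and 11.33 for yellow-g2. In H14, the narrowest line for both genes, the values were 10.92, 11.20, 11.15 and 11.30 for yellow-g and 10.51, 10.73, 10.62 and 10.98 for yellow-g2. In both lines the same group was the lowest for both genes. In males the SD within lines was 0.25 for yellow-g and 0.17 for yellow-g2.

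The deviations of the pair from their line means ran together in females. Over the 60 female arrays r was 0.97 within lines (rho 0.97, permutation within lines, p = 1e-05, the smallest that 100000 permutations can give). It was positive in each of the 15 lines, the lowest being 0.71. The female line means were correlated at r = 0.93 (permutation p = 1e-05, the smallest possible; rho 0.89, p = 5.0e-05) and at 0.91 without H09 and H12. Since line took 0% of the variance of both genes in females, this correlation shows no variation among lines apart from that between replicate groups. In males, where both genes were measured near the low end of the scale, r was -0.16 within lines (permutation p = 0.231; rho -0.08) and 0.02 over line means (permutation p = 0.948; rho 0.13). Among the other 7 members, the correlations with yellow-g within female lines ran from -0.11 for y to 0.51 for yellow-d.

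**Figure D4:**
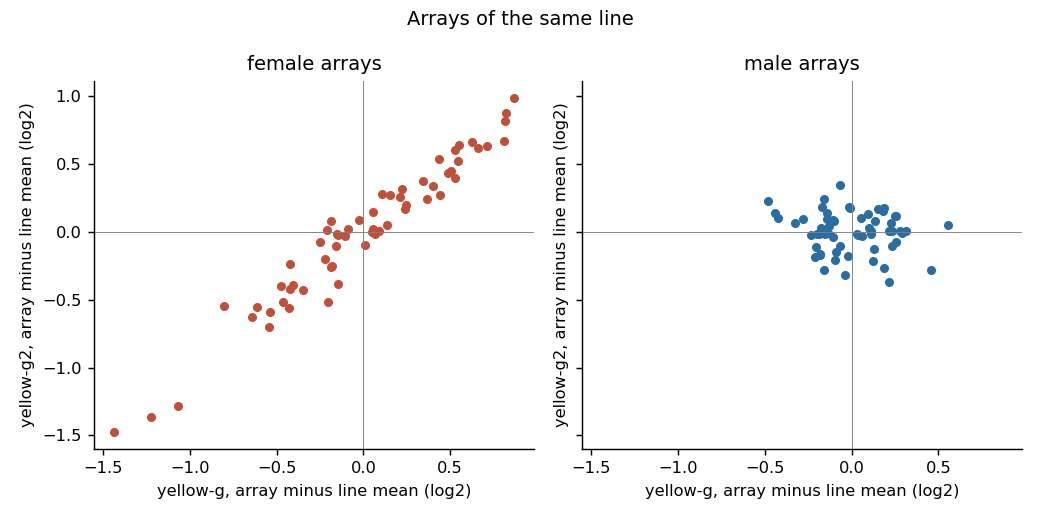
Deviation of each array from the mean of its line (log2) for yellow-g (horizontal axis) and yellow-g2 (vertical axis), in 60 female arrays (left, red) and 60 male arrays (right, blue) on the same axes. The female points lie along a line with r = 0.97, while the male points have r = -0.16 and a smaller spread.

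The transcripts that moved with the pair within female lines were then listed as a description, since all points share the same 60 arrays and their normalization. After yellow-g2, the probe sets of single genes with the highest correlation to yellow-g were CG13114 (0.96), CG10163 (0.95), CG4009 (0.95), Muc4B (0.94), CG1077 (0.94), CG11381 (0.92) and CG13737 (0.92), followed by Cp36 (0.90), a chorion gene of the amplified X cluster. They lie on the X, 2L, 3L and 3R, and each had higher values in females under the deposited scaling, with male minus female differences from -2.20 (CG13737) to -8.83 (Cp36). In all, 21 of 18768 other probe sets had r above 0.8 with yellow-g within female lines, and 0 had it within male lines. Male values of yellow-g lay near the low end of the scale, so the male count says little about shared variation.

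Eggshell genes did not all move with the pair. Cp36 (0.90), Cp38 (0.83) and Cp7Fc (0.64) of the X chorion cluster had the higher values of r with yellow-g. The 4 measured genes of the other chorion cluster, on 3L (Cp15, Cp16, Cp18 and Cp19), had r from 0.32 to 0.53. The 5 measured vitelline membrane genes (Vm26Aa, Vm26Ac, Vm32E, Vm34Ca and psd), which encode the inner eggshell layer laid down before the chorion, had r from 0.04 to 0.16. Their SD within female lines was 0.26 to 0.46, against 0.23 to 0.43 in the X cluster and 0.12 to 0.28 in the 3L cluster. Over the 21 measured genes of the eggshell list besides the pair, r with yellow-g ran from -0.20 (Pxt) to 0.94 (Muc4B). Genes outside the named groups also included Femcoat (0.59), tsl (0.43) and Fcp3C (-0.02). For the yolk protein genes r with yellow-g was 0.02 (Yp1), 0.10 (Yp2) and 0.22 (Yp3).

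**Figure D5:**
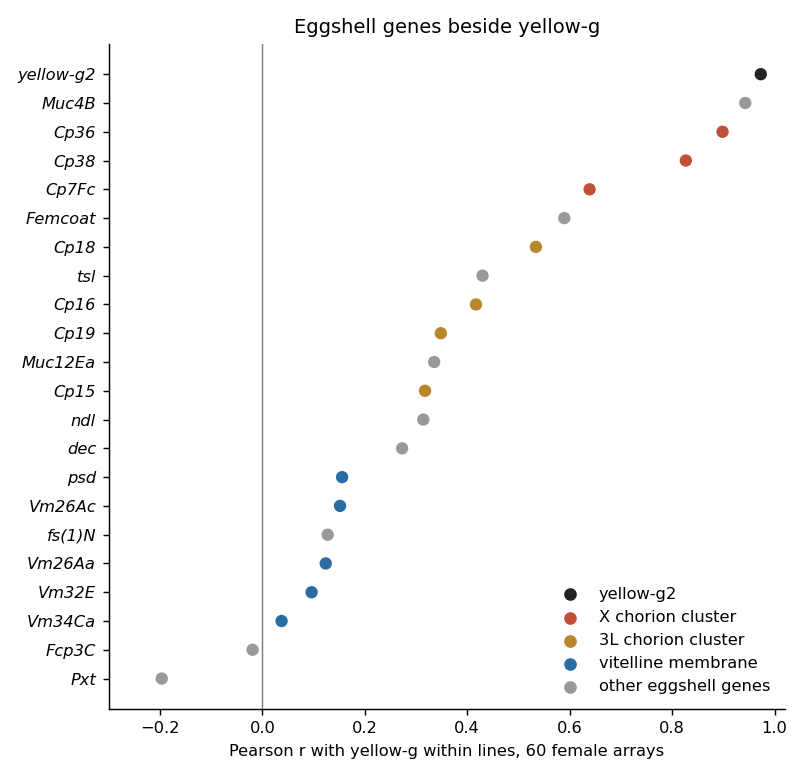
Pearson correlation with yellow-g within lines over 60 female arrays (horizontal axis) for 22 genes of the eggshell list (vertical axis, ordered by r), coloured by group. After yellow-g2 (0.97), Muc4B and the X chorion genes Cp36 and Cp38 have the highest values, the 3L chorion genes lie between 0.32 and 0.53, and the vitelline membrane genes lie at or below 0.16.

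The eggshell list, which includes yellow-g and yellow-g2, was higher in females for most of its genes. Of 29 genes 23 were measured, 22 had higher expression in females and 1, tsl, in males, under each of the 3 scalings (higher in females, 60.9%, 73.6% and 21.4% of all probe sets in the deposited values and after centring on the array median and on the ribosomal protein genes). The median difference of the list was -6.86, beside -0.27 over all probe sets, with the largest in Cp36 (-8.83), Cp19 (-8.60), Cp38 (-8.22) and Muc12Ea (-8.20). The torso-like gene tsl, which acts in the eggshell to pattern the ends of the embryo, differed by 1.82. Line variation in females passed for 1 of the 23 genes, Vm32E (adjusted p = 0.000943; 8.36% of all probe sets), and in males for 3 (27.3%).

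The melanin and cuticle tanning genes were split in the direction of their sex differences. Of 13 genes 12 were measured. In the deposited values 8 had higher expression in males (30.5% of all probe sets), 3 in females (60.9%) and 1 passed in neither direction. The median difference was 0.65, beside -0.27 over all probe sets. With arrays centred on their medians, 5 passed as higher in males (21.2% of all probe sets) and 5 as higher in females (73.6%), with a median of 0.02 beside -0.91. With arrays centred on the ribosomal protein genes, 10 passed as higher in males (72.1%) and 0 as higher in females (21.4%), with a median of 1.41 beside 0.48. The largest differences were those of t (2.18), which frees dopamine from its beta-alanyl conjugate, speck (1.98), an arylalkylamine N-acetyltransferase, Ddc (1.91), the dopa decarboxylase, and Pu (1.87), the GTP cyclohydrolase that supplies the cofactor for dopa synthesis. These 4, like yellow-b, yellow-d, yellow-e and yellow-f2, were higher in males in 15 of 15 lines and under each scaling. A link between the tanning genes and those members was not tested. Line variation passed for 4 of the 12 genes in males (t, stw, PPO3 and Dhpr; 27.3% of all probe sets) and for 5 in females (stw, PPO1, PPO2, PPO3 and Dhpr; 8.36%).

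For each member, the 3 genes whose line means followed it most closely in the sex of its higher mean in the deposited values were named, over 15 lines and with no test. For y, yellow-d2 and yellow-f that sex turned with the scaling. In females line took 6.7% of the variance of y and 0% of that of yellow-d2, yellow-g and yellow-g2. The genes named were the highest of 13647 probe sets with 1 gene, so that a high r over 15 lines shows no relation by itself. For yellow-g they were CG4009 (r = 0.97), Cp36 (0.95) and CG13114 (0.94), and for yellow-g2 they were yellow-g (0.93), CG4009 (0.88) and Cp36 (0.88), all in females. For yellow-f2 in males they were CG3529 (0.87), rtet (0.86) and CG10562 (0.84), and for yellow-d in males CG6689 (0.86), Mpi (0.86) and EDTP (0.84). The males of yellow-b were followed by Ocrl (0.85), Vav (0.81) and fd59A (0.79), and those of yellow-e by zormin (0.81), Npc2a (0.80) and Mal-B2 (0.79). In females, yellow-f was followed by Ythdc1 (0.81), CG3397 (0.77) and Cnep1r1 (0.77), yellow-d2 by CG5968 (0.80), CG5916 (0.80) and Ctps (0.76), and y by COX6AL (0.80), Or67a (0.77) and CG16852 (0.76). Between members, yellow-f and yellow-f2 had a correlation of line means of 0.60 in males and 0.56 in females, and of 0.17 and 0.07 within lines. Such values were not particular to this pair. In females yellow-f2 had 0.62 with yellow-e and 0.59 with yellow-d, and in males yellow-e and yellow-f had 0.58.

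No member passed the test between lines of the H prefix and lines of the P prefix. In limma on line means, 0 of 9 members passed an FDR of 0.05 in males (3.81% of all probe sets) and 0 of 9 in females (0.25%). The unadjusted p was below 0.05 in 0 of 9 members in males and in 1 of 9 in females, yellow-e (limma, adjusted p = 0.216). There the H lines averaged 6.10 ± 0.088 (SD) and the P lines 5.96 ± 0.096. The 4 lines lowest in yellow-f all had the P prefix, but the H lines differed from the P lines by only 0.17 ± 0.12 (SE, adjusted p = 0.475) in males and 0.15 ± 0.095 (adjusted p = 0.564) in females.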

How the data were processed

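Total RNA of whole flies was hybridised to Affymetrix Drosophila Genome 2.0 arrays. The authors computed the deposited log2 values with RMA in the affy package (versions not given in the sources used here), which corrects background, normalizes the arrays by quantiles and gives 1 value per probe set. No scanner files were used, so neither detection calls nor saturation could be assessed, and the precision is limited by the number of arrays. Of 18952 probe sets, 183 controls were left out. Genes were named from the platform annotation, with symbols updated through Entrez ID for 13544 of 13647 probe sets with 1 gene. Another 402 probe sets had several genes and 4720 had none, and none of these was named. The family members and gene lists were chosen with earlier results of these data known.

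A mixed model was fitted to each probe set, with a fixed effect of sex and random effects of line and of their interaction. For sex, the mean square was set against that of the interaction. The random terms were tested by restricted likelihood ratios, compared with an equal mixture of chi-square distributions on 0 and 1 degrees of freedom and computed from the mean squares, and line was also tested within each sex. The percentage of variance is that of the fitted components. In the model of both sexes, the p-values of line and of the interaction were within 0.01 of those of lme4 1.1.37 for all 9 members. The tests of line within each sex were not compared with lme4. Adjustment was by the Benjamini-Hochberg method over 18769 probe sets. H-prefix and P-prefix line means were compared with limma. Correlations over lines were tested two-sided with 100000 permutations. The text names every member, the 4 genes of each list with the largest sex difference, the 3 genes most like each member and 5 genes that check the sex labels, beside Acp36DE from the list of seminal fluid markers; genes named beyond these, among them those that moved with yellow-g within lines and those whose line term passed, were picked once their values were known. In the tanning list, the names Dat, Bc and hk matched no single gene and b had no probe set; in the eggshell list, closca matched no gene and Cp7Fa, Cp7Fb, Vm26Ab, Vml, fs(1)M3 and Cad99C had no probe set. A gene with several probe sets was represented by the brightest. The replicates were independent groups of flies. The study hybridised its arrays in batches, but the batch of an array is not given in the sources used here, so that no batch term was fitted and no value within batches could be given. Alternatives were the centring of arrays, a replicate block, leaving out each replicate or line, a filter on dim probe sets (mean of at least 5 in either sex), another FDR and limma. The mixed model tests, with line within each sex among them, were tried on simulated data, and the other steps were not. Python 3.11.15, numpy 2.4.6, pandas 2.3.3, scipy 1.17.1, R 4.3.3 and limma 3.58.1 were used.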

Additional observations from a re-analysis of the deposited data

Results flagged for a closer look

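Among the groups of 4 arrays in the highest and lowest line of each member and sex, 2 of 36 held an array far from the other 3 by Dixon's ratio of gap to range above its critical value, and chance gives about 1 in 20. In y, 1 of the 4 male arrays of P56, the line with the highest male mean, read 3.90 where the other 3 read 3.56 to 3.62 (ratio 0.847). In yellow-b, 1 of the 4 female arrays of P50, the line with the lowest female mean, read 5.88 where the other 3 read 6.19 to 6.22 (ratio 0.904). Over the groups of all lines, 11 of 270 were above the critical value.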

How the results depend on the processing

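The direction of each member's sex difference depended on scaling only for y (0.46), yellow-d2 (0.22) and yellow-f (0.68, male minus female), which reversed after centring on the ribosomal protein genes. The members higher in males were then 7 and those higher in females 2, against 4 and 4 in the deposited values. With dim probe sets left out, y and yellow-d2 were not tested and 2 members were higher in females. The line term over both sexes passed for 1 member at an FDR of 0.05, and for 5 both in limma and when the interaction was left out of the model. The sex-by-line term passed for 1 member, yellow-e, after centring on the ribosomal protein genes. Leaving out a replicate gave 0 members for sex by line, 2 to 3 for line in males and 0 for line in females, and leaving out a line gave 0 to 1, 3 to 4 and 1 to 2. The correlation of yellow-g and yellow-g2 over female lines was 0.89 to 0.97 without a replicate and 0.91 to 0.94 without a line. Replicate numbers were not taken to pair the samples, since deviations of same-numbered arrays correlated above 0.1 in 424 of 840 pairs within a sex (median 0.10, -0.49 to 0.55) and in 19 of 60 between the sexes of a line (median 0.05). Still, 53 of 60 male and 41 of 60 female arrays correlated best, on average over other lines, with arrays of their own number. There were 4 numbers to match, and the main tests leave replicate number out. A fit with replicate number as a block within each sex passed 5 members instead of 4 for line in males. It added yellow-f2 (adjusted p = 0.00022), which then passed in both sexes as yellow-f did. The other 4 tests passed the same number, but the sex test could not change, since the block leaves the line means as they were. With the block, r of yellow-g and yellow-g2 within lines was 0.97, an alternative chosen after seeing the data, as was the correlation of yellow-f over 11 lines. Of 1517 values of single members under the alternatives, 1456 kept their direction and their side of the threshold, 22 fell below it, 21 came past it and 18 reversed. Line and sex-by-line terms have no direction, so for them only the side of the threshold could change. The total also takes in settings that changed the FDR threshold alone, and the sex test with the replicate block, which could not change. Of the 18 that reversed, 15 were H minus P differences that passed in no setting: y (0.0033) and yellow-d2 (0.0097) in males after centring on the array median, and 13 with a replicate or a line left out. Over those settings the differences ran from -0.036 to 0.0079 for y and -0.023 to 0.016 for yellow-d2 in males, and from -0.025 to 0.067 for y, -0.029 to 0.11 for yellow-d, -0.11 to 0.24 for yellow-g and -0.037 to 0.32 for yellow-g2 in females. Counts for the H and P prefixes were 0 in every alternative. Low signal limits y in both sexes and yellow-g2 in males, whose values lay within the range of Y-linked probe sets in females.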

Other observations

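Another 4 genes of the family on the array were outside the set named. In the deposited values, yellow-h on chromosome 4 differed by 2.00 ± 0.072 (male minus female, SE, n = 15 lines), with male arrays at 5.54 to 7.11 and female arrays at 3.64 to 5.24. The female mean of yellow-h, 4.35, lay within the range of Y-linked probe sets in females, so that no fold is given. The haplotypes of the lines do not fix chromosome 4. The gene yellow-k on 3L differed by -2.66 ± 0.076. Its male arrays, at 3.53 to 4.45, lay within the range of Y-linked probe sets in females, so that no fold is given. In females its SD within lines of 0.43 exceeded that of 98.6% of probe sets. Smaller differences were measured for yellow-e2 (0.34 ± 0.061), which turned to -0.29 after centring on the array median, and for yellow-e3 (-0.40 ± 0.039), which turned to 0.35 after centring on the ribosomal protein genes. The means of yellow-e2, 3.74 in males and 3.39 in females, lay within the range of Y-linked probe sets in females.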
